A study of Mus musculus with 10 samples.

Results

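Voltage-gated calcium channels open when the membrane depolarises and let calcium into the cell. The alpha1 subunit forms the pore and carries the voltage sensor, and each alpha1 gene gives a channel of its own pharmacology and kinetics. Described here are the 8 alpha1 genes Cacna1a, Cacna1b, Cacna1c, Cacna1d, Cacna1e, Cacna1g, Cacna1h and Cacna1i, chosen by symbol, among 40904 gene symbols measured. Each has 1 row in the mRNA tables.

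The samples were primary cortical neurons cultured from E14 embryos of ICR mice and harvested at 11 days in vitro. One culture group received AAV-Control, an adeno-associated virus used as the control, and the other received AAV-Gata1, which carries the zinc finger transcription factor gene Gata1. Both groups therefore carry a virus. The promoter that drives Gata1 in the virus, and whether embryos were pooled, are not given in the labels. Of 10 samples in the series, the 2 mRNA libraries were used, 1 per group, so the differences below could be neither tested nor set against a spread between replicates. Levels are in FPKM, fragments per length of transcript and per size of library, a scale per length on which genes can be compared with each other.

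Gata1 was listed at 0 FPKM in the AAV-Control library and at 2.07 FPKM in the AAV-Gata1 library. The libraries summed to 476398 and 476848 FPKM, and their depth in fragments is unknown. Neuronal markers were abundant (Stmn2 at 252 and 242 FPKM, Map2 at 240 and 236 FPKM in AAV-Control and AAV-Gata1), and so were those of astrocytes, with Gfap, their intermediate filament, at 887 and 897 FPKM. The cultures therefore hold glial RNA beside neuronal RNA. In such bulk samples fewer cells of a type and less RNA per cell cannot be told apart.

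Channels of the Cav1 class (L-type: Cacna1c, Cacna1d) sit largely on cell bodies and dendrites and couple activity to transcription. Those of the Cav2 class (Cacna1a, Cacna1b, Cacna1e) open near release sites and trigger transmitter release. Cav3 channels (T-type: Cacna1g, Cacna1h, Cacna1i) open at more negative potentials and support burst firing. Cav1 and Cav2 channels assemble with beta and alpha2delta subunits, while Cav3 channels can conduct without them.

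The T-type genes and Cacna1e read lower in the AAV-Gata1 library. All 3 T-type genes were lower, Cacna1g by 26.96%, Cacna1i by 19.6% and Cacna1h by 8.67% in FPKM. Among the 5 Cav1 and Cav2 genes, Cacna1e was lower by 12.2%, and the other 4 lay within 5% of their control level. The sum of T-type FPKM was 17.5% lower, and that of Cav1 and Cav2 together 0.443% lower. Whether the classes differ cannot be tested with 1 library per group.

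Cacna1a encodes Cav2.1, the pore of the P/Q-type channel that drives release at most fast central synapses. It was the most abundant member, at 12.6 FPKM in AAV-Control and 13.1 FPKM in AAV-Gata1. Of all symbols, 7009 had a higher value in the control, so even this member was of moderate abundance. Cacna1b, which encodes the N-type channel Cav2.2, followed at 10.54 and 10.51 FPKM. Those levels are 0.313% apart. Cacna1e encodes the R-type channel Cav2.3, found at release sites and in dendrites, and stood at 5.78 FPKM in AAV-Control and 5.08 FPKM in AAV-Gata1. It is the single Cav2 gene that was lower by more than 1%.

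Cacna1c encodes Cav1.2, the main L-type channel of the brain, and read 6.32 FPKM in AAV-Control and 6.31 FPKM in AAV-Gata1. Cacna1d encodes Cav1.3, an L-type channel that opens at more negative potentials than Cav1.2, and stood at 4.15 and 4.18 FPKM. Both L-type genes thus read nearly the same in the 2 libraries, 0.107% lower and 0.747% higher. They lie across other genes in the RefSeq annotation: Cacna1c overlaps Dcp1b (7.66 and 8.14 FPKM), and Cacna1d overlaps Dcp1a (6.88 and 6.99 FPKM) and Chdh (0.417 and 0.226 FPKM). Whether fragments were assigned by strand is not given in the labels, so reads in shared stretches may belong to either gene.

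Cacna1g encodes the T-type channel Cav3.1, known for burst firing of thalamic relay cells. Its level was 5.36 FPKM in AAV-Control and 3.91 FPKM in AAV-Gata1, a difference of -1.44 FPKM and the largest of the 8 in either direction. Cacna1h, which encodes Cav3.2, read 6.35 and 5.80 FPKM. Cacna1i, which encodes Cav3.3, was the least abundant member at 2.73 and 2.20 FPKM. With Cacna1g left out, the remaining T-type sum was 9.08 FPKM in AAV-Control and 7.99 FPKM in AAV-Gata1, so the lower sum does not rest on that gene alone. Of these 3 genes, Cacna1h overlaps a protein-coding gene in RefSeq, Tpsg1, which was listed at 0 and 0.0690 FPKM.

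**Figure D1:**
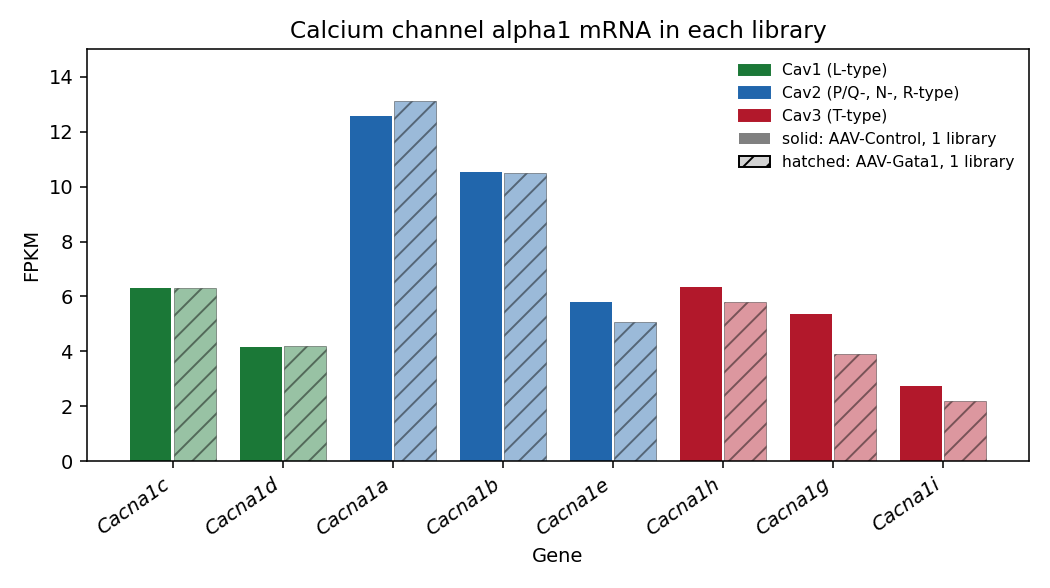
FPKM of the 8 alpha1 genes (vertical axis) in the AAV-Control library (solid bars) and the AAV-Gata1 library (hatched bars), coloured by channel class; each bar is 1 library, so there are no error bars. Cacna1a is highest at 12.6 and 13.1 FPKM, and all 3 T-type genes have the shorter bar in AAV-Gata1.

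The order of the levels was nearly the same in both libraries. In AAV-Control it ran Cacna1a, Cacna1b, Cacna1h, Cacna1c, Cacna1e, Cacna1g, Cacna1d, Cacna1i. In AAV-Gata1 2 pairs of neighbours changed places: Cacna1c stood above Cacna1h, and Cacna1d above Cacna1g. Cacna1h and Cacna1c were 6.345 and 6.320 FPKM in the control. No spread between samples was measured, so no neighbours in the order can be said to differ beyond it.

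By class, Cav2 genes made up most of the alpha1 mRNA, with 53.7% of the summed FPKM in AAV-Control and 56.2% in AAV-Gata1. The L-type share was 19.5% and 20.5%. The T-type share was 26.8% and 23.3%. Summed over the 8 genes, the level was 53.8 FPKM in AAV-Control and 51.1 FPKM in AAV-Gata1, 5.03% lower, and without Cacna1g it was 48.4 and 47.2 FPKM.

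**Figure D2:**
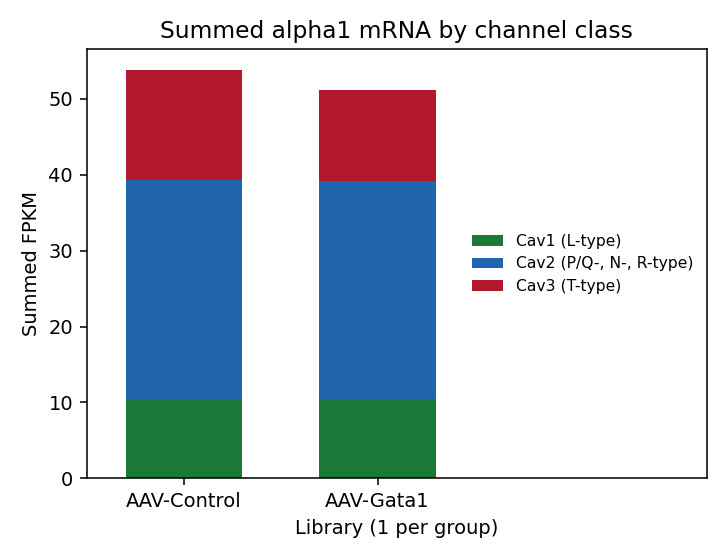
Summed FPKM of the alpha1 genes (vertical axis) in the 2 libraries, stacked by channel class. The Cav1 and Cav2 blocks are of nearly equal height in both bars, and the T-type block goes from 14.4 FPKM in AAV-Control to 11.9 FPKM in AAV-Gata1.

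To set the members beside other genes, the log2 of (AAV-Gata1 FPKM + 1)/(AAV-Control FPKM + 1) was taken for the 13740 genes whose mean over the libraries reached 1 FPKM, as it did for all 8 members. The added 1 FPKM makes differences of low genes look smaller. Below 0 on this scale were 6 of 8 members, against 54.7% of all genes compared. The median was -0.058 over the members and -0.013 over all genes. Subtracting that overall median places Cacna1b and Cacna1c above 0 and leaves 4 members below it, the 3 T-type genes and Cacna1e.

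Only Cacna1g was at least 1.2-fold lower, at a log2 ratio of -0.37, where 3.98% of all genes compared were as far down. Among the 5257 genes whose mean lay within the members' own range, 2.46 to 12.8 FPKM, the share was 5.50%. A count of 1 in 8 is too small to be read against these shares. No member was 1.2-fold higher, against 3.29% of all genes, and none was 1.5-fold apart in either direction, against 1.28%. Without the added 1 FPKM, Cacna1i passes 1.2-fold as well.

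The place of each member among all genes was read as the share of genes with a lower log2 ratio. Of the genes compared, 1.79% had a lower log2 ratio than Cacna1g, 5.69% a lower one than Cacna1i (-0.22), and 18.2% a lower one than Cacna1h (-0.11). For Cacna1e (-0.16) the share was 10.8%. Cacna1b, Cacna1c and Cacna1d lay between 53.1% and 57.9%, near the middle of all genes, and Cacna1a (0.056) at 73.6%. The T-type genes and Cacna1e thus lie below most genes by this measure, each at its own distance.

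**Figure D3:**
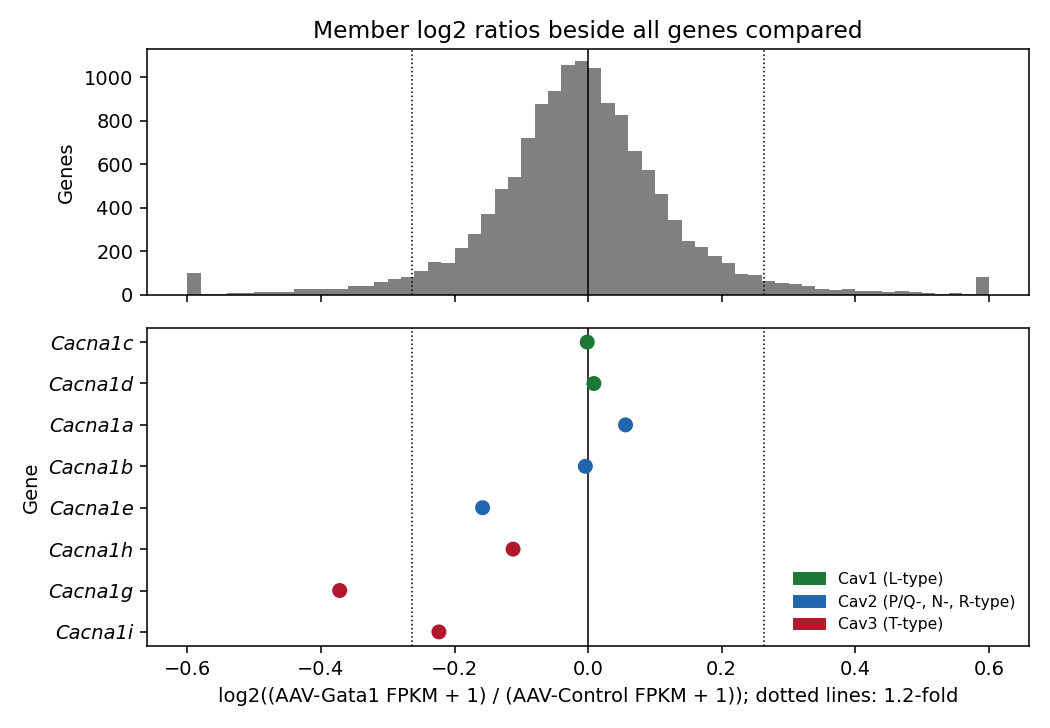
Top, number of genes (vertical axis) by log2 ratio of AAV-Gata1 to AAV-Control FPKM (horizontal axis, 1 FPKM added to each value), with values beyond 0.6 in either direction placed in the end bins; bottom, the 8 members on the same axis, coloured by class. Cacna1g, at -0.37, is the single member outside the dotted 1.2-fold lines.

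The members are long genes, with RefSeq spans from 62.05 kb (Cacna1h) to 610 kb (Cacna1c). Of 3013 compared genes with a span of at least that of Cacna1h, 60.3% had a log2 ratio below 0, with a median of -0.024. The T-type genes are the shortest members, with Cacna1g at 66.01 kb and Cacna1i at 111 kb. The Cav1 and Cav2 genes span from 159 kb (Cacna1b) upward, so span and class cannot be told apart within the family. In FPKM, Cacna1h was 8.67% lower, Cacna1g 26.96% and Cacna1i 19.6%, and Cacna1e, at 494 kb, was 12.2% lower. The part of gene span in these values was not tested.

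Promoter sequence was read for motifs because the virus carries a GATA factor, whose family binds GATA hexamers. RefSeq on GRCm38.p6 gave 8 promoter windows for 5 members (Cacna1b, Cacna1c, Cacna1d, Cacna1e and Cacna1i), each from 250 bases before a start site to 50 after it. The letters GATAA or GATAG, with an A or a T just before them, were searched on both strands. They occurred in 3 of these 8 windows, 2 of Cacna1c and 1 of Cacna1d, and in 29.8% of all 32851 windows of the same length. The matched stretches are shown, because they are the matches found in these 8 windows, with the match in capitals and each read 5′ to 3′ along the gene.
Cacna1c, chr6:118758049-118758078, minus strand: gccccgctggtgAGATAGctccttcattgg
Cacna1c, chr6:119196635-119196659, minus strand: accaggcCTATCAcccttccacaca
Cacna1d, chr14:30491297-30491326, minus strand: cattttttgactTGATAAattataaactca
The first begins its match 92 bases before the start site, the second 243 bases before (TGATAG on the opposite strand) and the third 158 bases before. A match is a description of letters only. Whether GATA1 binds these stretches was not tested, and Cacna1a, Cacna1g and Cacna1h had no window to read.

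Cacna1i, the T-type gene with a window, had no match to the GATA letters, none to the GC box GGGCGG and none to the cyclic AMP response element TGACGTCA. Cacna1b, the member whose promoter is richest in GC boxes among those with a single window, had 3 GC boxes, shown in capitals. The 250 bases before each start site are given for these genes, which were picked with their levels known. Any link between promoter letters and level was not tested.
Cacna1i, chr15:80286988-80287237, plus strand: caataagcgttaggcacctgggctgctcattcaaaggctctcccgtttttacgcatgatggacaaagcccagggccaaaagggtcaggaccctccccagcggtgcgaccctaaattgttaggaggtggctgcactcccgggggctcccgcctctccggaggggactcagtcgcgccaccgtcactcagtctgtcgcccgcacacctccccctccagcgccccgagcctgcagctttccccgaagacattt
Cacna1b, chr2:24763153-24763402, minus strand: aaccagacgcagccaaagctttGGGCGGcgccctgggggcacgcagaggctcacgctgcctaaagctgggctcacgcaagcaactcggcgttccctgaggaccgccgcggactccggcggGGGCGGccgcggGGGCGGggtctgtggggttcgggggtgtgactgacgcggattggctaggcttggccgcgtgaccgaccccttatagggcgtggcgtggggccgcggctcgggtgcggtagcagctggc
GC boxes, counted on both strands with overlapping runs allowed, were in 3 of the 8 member windows and in 35.7% of all windows, and the cyclic AMP response element was in none of the 8 and in 1.79% of all. Over the 300 bases, the G and C content was 62.7% for Cacna1i and 72.3% for Cacna1b, against a median of 52.7% for all windows.

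Both remaining alpha1 genes of the mouse were near 0. Cacna1f, which encodes the retinal L-type channel, was at 0.0209 FPKM in AAV-Control and listed at 0 in AAV-Gata1. Cacna1s, the skeletal muscle gene, was listed at 0 in AAV-Control and at 0.00798 FPKM in AAV-Gata1.

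The beta subunits bind the pore subunit from inside the cell and bring it to the membrane. Cacnb3 was the highest, at 26.1 FPKM in AAV-Control and 26.3 FPKM in AAV-Gata1, followed by Cacnb4 at 15.6 and 16.2 FPKM, Cacnb1 at 13.8 and 12.8 FPKM, and Cacnb2 at 5.27 and 4.69 FPKM. Their summed level was 1.54 times that of the Cav1 and Cav2 genes in AAV-Control and 1.53 times in AAV-Gata1. None of the 4 passed 1.2-fold, and the largest difference was that of Cacnb2, at a log2 ratio of -0.14.

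The alpha2delta subunits, which lie on the outer face of the membrane and help bring channels to it, were led by Cacna2d1 at 11.37 and 11.40 FPKM. Cacna2d3 stood at 9.79 FPKM in AAV-Control and 8.71 FPKM in AAV-Gata1, a log2 ratio of -0.15. Cacna2d2 was level at 5.66 and 5.72 FPKM, and Cacna2d4 was under 1 FPKM in both libraries. Of the 3 genes that could be compared, 1 was lower and 2 were higher.

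The gamma family includes proteins that escort AMPA receptors rather than calcium channels in the brain. All 6 that reached a mean of 1 FPKM were lower in AAV-Gata1, against 54.7% of all genes compared, at a median log2 ratio of -0.090, and none by 1.2-fold. Cacng7 was the most abundant at 97.5 FPKM in AAV-Control and 89.4 FPKM in AAV-Gata1. Cacng4 stood at 33.9 and 31.7 FPKM and Cacng5 at 10.4 and 9.77 FPKM. Lower levels were those of Cacng8 (6.35 and 5.93 FPKM), Cacng2, or stargazin (3.75 and 3.15 FPKM), and Cacng3 (2.41 and 2.29 FPKM).

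RGK GTPases lower the current of Cav1 and Cav2 channels. Gem stood at 33.4 FPKM in AAV-Control and 35.9 FPKM in AAV-Gata1, and Rem2 at 2.18 and 1.89 FPKM, while Rem1 and Rrad were under 1 FPKM. Of 11 scaffold and modulator genes compared, 8 were lower, where 54.7% of all genes were, and none passed 1.2-fold. Furthest from 0 were Cabp1, a calmodulin-like regulator of the channels (6.78 and 6.11 FPKM), Camk2a, a calcium-activated kinase subunit (23.4 and 21.3 FPKM), and Rims1, a release site scaffold (12.1 and 11.1 FPKM).

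Between L-type entry and transcription, 3 of 5 genes were lower and 2 higher, close to the 54.7% of all genes that were lower. Nfatc4, a calcineurin-dependent transcription factor, stood at 1.39 and 1.70 FPKM, the coactivator gene Crtc1 at 18.5 and 16.95 FPKM, and the kinase gene Camk4 at 8.68 and 8.20 FPKM.

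Of 10 genes that clear or buffer calcium 9 were lower, against 54.7% of all genes, and their median log2 ratio was -0.087. Slc8a2, a sodium-calcium exchanger gene, stood at 18.2 FPKM in AAV-Control and 14.9 FPKM in AAV-Gata1. Its relative Slc8a3 stood at 3.37 and 2.75 FPKM, and Calb1, which encodes the buffer calbindin, at 1.57 and 1.23 FPKM. Over the 41 genes compared in these lists of the channel complex and its partners, with 1 FPKM added, Slc8a2 alone was 1.2-fold lower and none 1.2-fold higher, against 3.98% and 3.29% of all genes. Without the added 1 FPKM, Slc8a3 and Calb1 also pass that limit on the lower side, and Nfatc4 on the higher side.

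**Figure D4:**
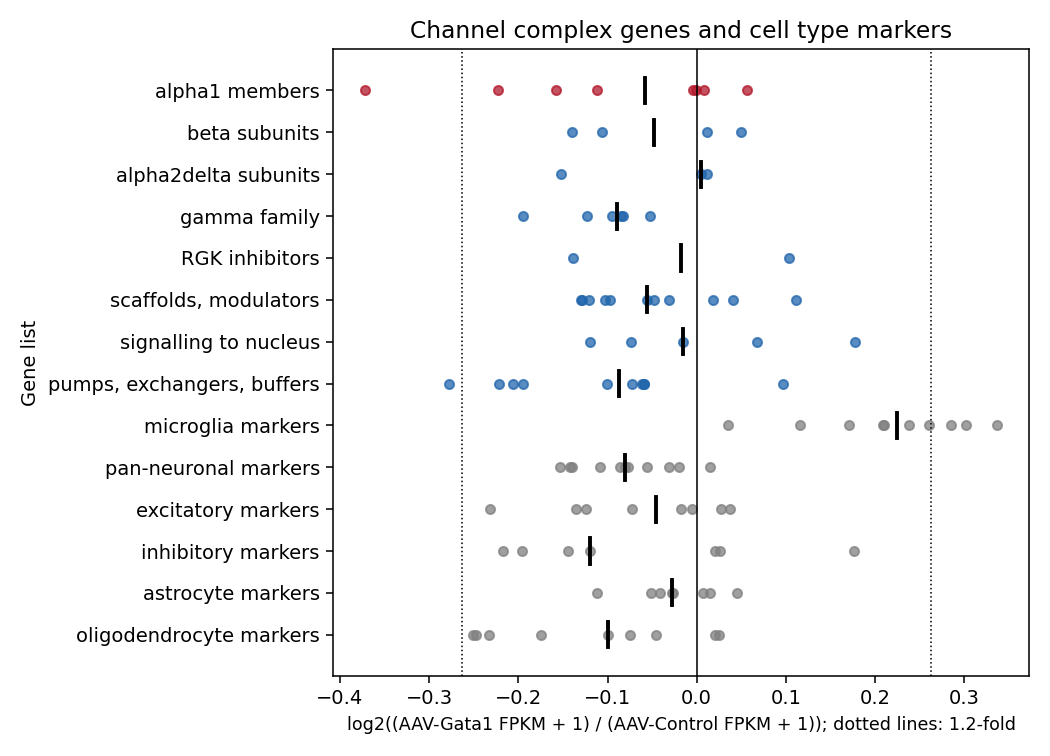
Log2 ratio of AAV-Gata1 to AAV-Control FPKM (horizontal axis, 1 FPKM added) for each gene that reached a mean of 1 FPKM, by list; points are genes, black bars are list medians, dotted lines mark 1.2-fold. The alpha1 members spread from -0.37 to 0.056, all 6 gamma genes lie left of 0, and all 10 microglia markers lie right of it.

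Markers of several cell types also differed between these libraries. Of 11 pan-neuronal markers found, 10 were lower, against 54.7% of all genes, with a summed level of 868 FPKM in AAV-Control and 832 FPKM in AAV-Gata1, 4.19% lower. The T-type sum was 17.5% lower over the same pair of libraries. Sums for excitatory neurons were 170 and 168 FPKM (Neurod6 at 59.3 and 60.8 FPKM) and those for inhibitory neurons 185 and 177 FPKM (Sst at 63.3 and 58.2 FPKM). Of the markers compared, 6 of 8 excitatory and 4 of 7 inhibitory ones were lower, against 54.7% of all genes. Single markers lay further apart than the sums. Slc17a6 (excitatory) was 18.1% lower, and of the inhibitory markers Npy was 17.3% lower, Gad2 15.8% lower and Slc32a1 15.8% higher. The part of these neuron types in the lower T-type values was not tested.

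Microglia markers were higher in 10 of 10 compared, although 54.7% of all genes were lower, from 450 to 529 FPKM in sum, with Tyrobp at 132 and 153 FPKM, while P2ry12 and Tmem119 were under 1 FPKM in both libraries. Oligodendrocyte lineage markers were lower in 7 of 9, beside the same 54.7%, from 255 to 239 FPKM in sum, with Olig1 at 87.9 and 83.5 FPKM. Markers of pericytes and smooth muscle, cells that also use L-type channels, were lower in 3 of 4 compared, beside 54.7% of all genes. Their sum went from 135 to 115 FPKM. Of that list Acta2 stood at 76.4 and 60.7 FPKM, and Tagln at 41.5 and 36.8 FPKM. Pdgfrb was nearly level at 13.60 and 13.57 FPKM, and Cnn1 was higher in AAV-Gata1, at 2.75 and 3.14 FPKM. Kcnj8 was listed at 0 in both libraries. Astrocyte sums were 2409 and 2402 FPKM, those of progenitors 238 and 257 FPKM, and those of endothelial cells 7.59 and 8.20 FPKM. Of the markers compared, 5 of 8 astrocyte, 3 of 6 progenitor and 1 of 2 endothelial ones were lower, against 54.7% of all genes. The progenitor marker Sox2 stood at 139 and 153 FPKM. Of the endothelial markers, Kdr stood at 2.44 and 2.20 FPKM and Egfl7 at 4.46 and 5.08 FPKM. The part of these cell types in the members' values was likewise not tested.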

How the data were processed

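The mRNA values were deposited by the authors as FPKM, per the file headers. Tools named per the submitters' processing notes include Cufflinks 2.1.1, Cuffdiff 2.1.1 and TopHat2 2.1.1, with builds mm9 and mm10; the notes as given here assign none of them to the mRNA. Libraries were made with a stranded mRNA kit, per the labels' protocols.

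Rows without a symbol (6 of 40993, 0.0122% and 0.0113% of the summed FPKM in AAV-Control and AAV-Gata1) were left out, and the highest-mean row of each symbol was kept. Of 1274 genes under 0.1 FPKM in both libraries, at most 43 shared a log2 ratio to within 0.02, so whole reads were not recovered. Ratios used a pseudocount of 1 FPKM and a minimum mean of 1 FPKM (Python 3.11.15, pandas 2.3.3, numpy 2.4.6). The calculation was also run on simulated data. That run is no check of the differences reported here, whose size was not tested. No test was made, with 1 library per group. Other pseudocounts, minimums, centring, summed rows and means were tried as alternatives. Named were all members and both other alpha1 genes, compared genes of the beta, alpha2delta, gamma and RGK lists, the 3 furthest from 0 of other lists, and up to 2 abundant markers per cell type. Slc17a6, Npy, Gad2, Slc32a1, P2ry12, Tmem119, Pdgfrb, Cnn1, Kcnj8 and the genes overlapping members were named after their values were seen. Members and lists were chosen with earlier results of these data known. The other 8 samples were not used here.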

Additional observations from a re-analysis of the deposited data

How the results depend on the processing

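The count of members at least 1.2-fold lower, 1 as reported, became 2 with a pseudocount of 0.1 FPKM and 2 with the plain FPKM ratio, a setting chosen after seeing the data; in both, Cacna1i joined Cacna1g. With a minimum mean of 5 FPKM it was 0, because Cacna1g, Cacna1d and Cacna1i are then left out and 5 members remain. Of 163 alternative values over 7 settings, 159 stayed within 0.1 log2 units, 1 percentage point or 1.5 times of the reported one. Many of the reported log2 ratios and medians are themselves smaller than 0.1, so staying within that limit says little about them. Cacna1g, the 1 log2 value past 1.2-fold as reported, did not reverse, and smaller values were not judged for reversal. Summed rows returned every value unchanged, so that setting adds no check, and the T-type shares were rerun under it alone. The count of members lower went from 6 to 4 with centring and with a minimum mean of 5 FPKM, which the 1.5 times rule counts as unchanged. Small values changed sign in 6 cases. Centring on the median of all genes put Cacna1b and Cacna1c above 0. The alpha2delta median was -0.029 with no minimum FPKM. The median of the beta subunits was 0.011 with a minimum mean of 5 FPKM, and the means of the alpha2delta list (-0.046) and the nuclear signalling list (0.0074) had the opposite sign to their medians. The member median ranged from -0.10 (mean in place of median) to -0.0041 (minimum mean of 5 FPKM). Cacna1g ranged from -0.45 to -0.36, Cacna1i from -0.31 to -0.21 and Cacna1h from -0.13 to -0.10. No paired analysis was possible because each group has 1 library, and for the same reason no library could be left out. The unknown depth leaves the counting error of each level unknown.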
